A study of Caenorhabditis elegans with 12 samples.

Results

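The genes exh-1, C36C5.12 and Y19D10B.6 lie on chromosome V of Caenorhabditis elegans and are 3 of 46926 rows of a table of read counts per gene. These genes were chosen by their values: each was lower in the TDP-43dNLS strain than in wild type worms in a fit described below, so that difference is given as a description, with no test. C36C5.12 lies beside exh-1, and the coding exons of these neighbours share lengths that few other genes have, whereas Y19D10B.6 lies 836.0 kb away.

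The study measured poly-A RNA of whole worms in 12 libraries, 4 for each of 3 strains, and asked about models of nuclear and cytoplasmic TDP-43, an RNA-binding protein that gathers in the cytoplasm of neurons in several human neurodegenerative diseases. The wild type group was the non-transgenic N2 strain. The TDP-43 group carried Psnb-1::TDP-43, a TDP-43 transgene under the promoter of snb-1, together with the red fluorescent marker Pmyo-2::dsRED. The TDP-43dNLS group (TDP-43ΔNLS in the labels) carried the same kind of transgene with the substitutions K82A, R83A and K84A in the nuclear localization signal of the protein, together with the marker Pmyo-3::dsRED. The snb-1 promoter acts in neurons throughout the animal, the myo-2 promoter in pharyngeal muscle and the myo-3 promoter in body wall muscle, so the strains differ in their marker as well as in the form of TDP-43. All groups were raised from hypochlorite-treated eggs at 20 °C and were labelled as fourth-stage larvae. Nothing in the labels ties the 4 libraries of a strain to separate cultures, and p-values therefore cover only library-to-library spread, which may be technical.

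Total counts ran from 20671982 to 26910097 per library. The libraries of each group fell into 2 kinds that the labels do not name. Replicates 3 and 4 of TDP-43dNLS and replicate 4 of both other groups were low in 14 oocyte and eggshell genes (mean log2 CPM of 2.35 to 4.44, where CPM is a read count scaled by library size), and the other 8 libraries were high (8.61 to 9.67). The yolk gene vit-2 was at most 83.4 CPM in the 4 low libraries and at least 1555 CPM in the 8 high ones, and the adult cuticle collagen gene col-19 at most 481 and at least 1569 CPM. Transcripts of adults were therefore abundant in 8 libraries labelled as larvae. The wild type and TDP-43 groups held 1 low library each and the TDP-43dNLS group held 2. Fits were made without a covariate, as designed, and with a term for low or high libraries, called the split term below. In whole-worm RNA, fewer cells of a type and less RNA per cell cannot be told apart.

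The exh-1 gene (WBGene00016474) spans 3157086 to 3157871 of chromosome V on the plus strand in the WBcel235 build and encodes 204 residues in 3 coding exons of 141, 414 and 57 bases. C36C5.12 (WBGene00016481) spans 3158404 to 3159352 on the minus strand and encodes 202 residues in coding exons of 135, 414 and 57 bases, with 2 annotated transcripts. The pair points toward each other, with 532 bases between their 3′ ends. Y19D10B.6 (WBGene00021235) spans 2318490 to 2321101 on the minus strand and encodes 492 residues in 9 coding exons. No other annotated gene overlaps any of the 3 genes. The exc genes, one of which shares the exon lengths of exh-1, take their name from mutants with abnormal excretory canals; these canals are the tubes of the excretory cell, which runs along the worm and regulates its salt and water. What exh-1, C36C5.12 and Y19D10B.6 do is not given in the annotation used here.

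The exh-1 level was 38.2, 41.2, 26.3 and 39.0 CPM in wild type replicates 1 to 4. It was 21.9, 19.7, 22.5 and 66.0 CPM in the TDP-43 libraries and 9.44, 8.51, 7.29 and 11.5 CPM in the TDP-43dNLS libraries. Every TDP-43dNLS library lay below all 8 others, and the highest value of all came from TDP-43 replicate 4, a library low in oocyte transcripts. The group means were 36.2 ± 6.70, 32.5 ± 22.4 and 9.18 ± 1.77 CPM (SD, n = 4), so wild type stood at 3.94 times the TDP-43dNLS mean.

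The C36C5.12 level was 10.1, 11.3, 9.21 and 21.3 CPM in wild type. It was 8.56, 8.14, 8.27 and 28.6 CPM in TDP-43 and 1.53, 3.48, 3.60 and 3.33 CPM in TDP-43dNLS. As for exh-1, the TDP-43dNLS libraries lay below all others without overlap, while the low-oocyte library was the highest of its group in wild type and in TDP-43. Group means were 12.96 ± 5.59, 13.4 ± 10.2 and 2.98 ± 0.977 CPM (SD, n = 4), and wild type stood at 4.34 times TDP-43dNLS.

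The Y19D10B.6 level was 20.0, 21.7, 15.2 and 38.7 CPM in wild type. It was 11.9, 14.4, 14.8 and 32.2 CPM in TDP-43 and 5.02, 6.30, 7.17 and 12.9 CPM in TDP-43dNLS. All TDP-43dNLS libraries lay below all wild type libraries, but TDP-43dNLS replicate 4 exceeded TDP-43 replicate 1, so those groups overlapped. Group means were 23.9 ± 10.2, 18.3 ± 9.36 and 7.85 ± 3.49 CPM (SD, n = 4), and wild type stood at 3.05 times TDP-43dNLS. Raw counts of the 3 genes lay between 39 (C36C5.12 in TDP-43dNLS) and 1570 (exh-1 in TDP-43).

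**Figure D1:**
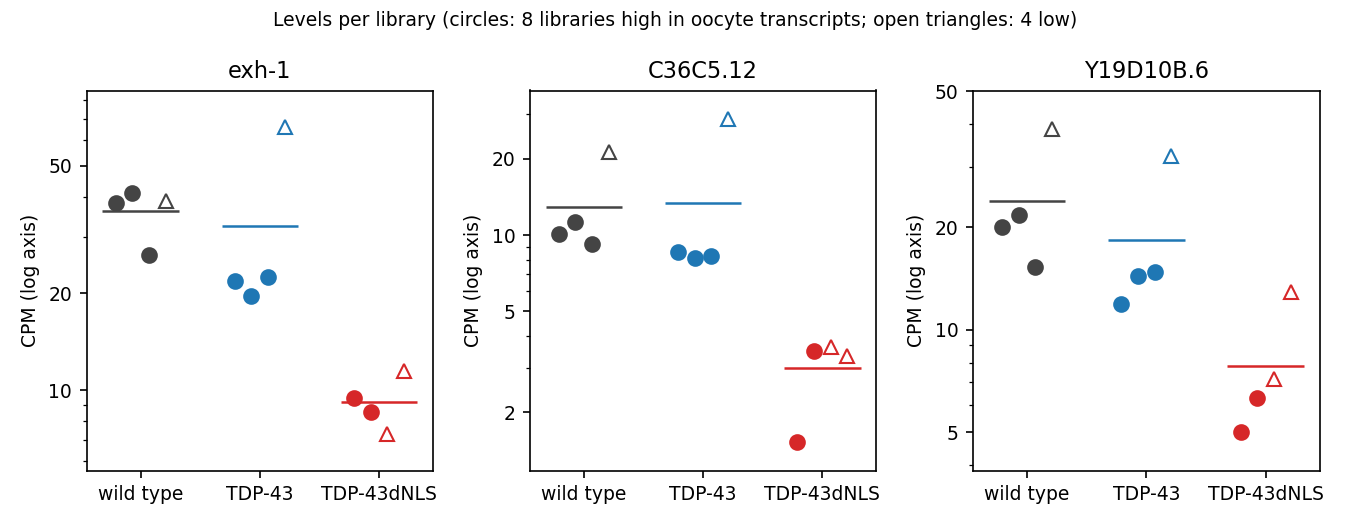
CPM of exh-1, C36C5.12 and Y19D10B.6 in each of the 12 libraries on a log axis; circles are the 8 libraries high in oocyte transcripts, open triangles the 4 low ones, and horizontal lines the group means. The TDP-43dNLS libraries of exh-1 (7.29 to 11.5 CPM) and C36C5.12 (1.53 to 3.60 CPM) sit below all others, and TDP-43 replicate 4 is the highest library of its group for each gene.

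Per kilobase of annotated exon, exh-1 was the most abundant of the 3 in wild type, at 52.7 ± 9.75 CPM per kb (SD, n = 4). C36C5.12 followed at 17.1 ± 7.38 and Y19D10B.6 at 13.8 ± 5.91 CPM per kb. Within each wild type library C36C5.12 was the higher of these, from 12.15 against 8.80 CPM per kb in replicate 3 to 28.0 against 22.4 in replicate 4. In TDP-43 the levels were 47.3 ± 32.6, 17.7 ± 13.4 and 10.6 ± 5.41 CPM per kb, and in TDP-43dNLS 13.4 ± 2.58, 3.94 ± 1.29 and 4.53 ± 2.02. C36C5.12 was also above Y19D10B.6 in each TDP-43 library. The order of their means was the other way round in TDP-43dNLS, where single libraries differed. There C36C5.12 was lower in replicates 1 (2.02 against 2.90 CPM per kb) and 4 (4.39 against 7.46) and higher in replicates 2 and 3.

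The lack of overlap was uncommon among the 16637 genes tested, but for the selected genes it carries no weight of its own. All TDP-43dNLS libraries were below all wild type libraries in 142 genes (0.854%), the 3 genes described among them, and below all TDP-43 libraries in 122 genes (0.733%), among them exh-1 and C36C5.12. They were below all 8 others in 23 genes (0.138%), again with exh-1 and C36C5.12. All TDP-43 libraries were below all wild type libraries in 184 genes (1.11%), and none of the 3 genes was among these.

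The difference between TDP-43dNLS and wild type can also be given within each kind of library. The fit that chose the genes measured this same difference in these libraries, so the values are a description only. In the 8 high-oocyte libraries, the wild type mean was 3.93 times that of TDP-43dNLS for exh-1, 4.08 times for C36C5.12 and 3.36 times for Y19D10B.6 (3 libraries against 2). In the 4 low-oocyte libraries, 1 wild type library stood against 2 of TDP-43dNLS, at 4.15, 6.13 and 3.86 times. For each gene and kind, the highest TDP-43dNLS library was below the lowest of the other strains. For Y19D10B.6 this was 6.30 against 11.9 CPM among high libraries and 12.9 against 32.2 CPM among low ones. The share of all tested genes that do so within each kind was not counted, so this lack of overlap carries no weight. Among low libraries only 1 library of each other strain stood against the 2 of TDP-43dNLS.

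The selection used the fit with the split term, in which edgeR called 9 of the tested genes (0.0541%) for TDP-43dNLS against wild type, 4 of them lower. These were Y19D10B.6 (log2 fold change -1.84 ± 0.23 SE, edgeR adjusted p 0.0149), C36C5.12 (-2.30 ± 0.32, 0.0229), pghm-1 (-1.03 ± 0.15, 0.0243) and exh-1 (-2.12 ± 0.32, 0.0385). Just outside the threshold of 0.05 lay zig-2 (-2.68 ± 0.43, 0.0694) and ZK809.8 (-1.02 ± 0.17, 0.093). Without the term, the log2 fold changes were -1.98 ± 0.41 for exh-1, -2.12 ± 0.52 for C36C5.12 and -1.61 ± 0.45 for Y19D10B.6, and edgeR called 0 genes (0%), with 124 lower and 117 higher at an unadjusted p under 0.05.

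Which of the 3 genes passed depended on single libraries, since the selection was close to the threshold. With the split term and each library left out in turn, exh-1 passed in 2 of 12 fits, those without TDP-43 replicate 4 (adjusted p 0.0118) or TDP-43dNLS replicate 3 (0.0499), and its adjusted p reached 0.165 in the others. C36C5.12 passed in 7 and did not pass without wild type replicate 2 (0.105) or 4 (0.126), TDP-43 replicate 2 (0.0538), or TDP-43dNLS replicate 1 (0.117) or 4 (0.0745). Y19D10B.6 passed in 9 and did not pass without wild type replicate 2 (0.105) or 4 (0.109) or TDP-43dNLS replicate 1 (0.0912). The fold changes moved less, from -2.30 to -1.97 for exh-1, -2.79 to -2.17 for C36C5.12 and -1.97 to -1.70 for Y19D10B.6.

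TDP-43 against wild type was not used to choose the genes, although the wild type libraries were. The design called 1 gene here (0.00601%), none of the 3. The log2 fold change was -0.15 ± 0.40 for exh-1 (95% interval -0.93 to 0.62), 0.05 ± 0.50 for C36C5.12 (-0.93 to 1.03) and -0.39 ± 0.44 for Y19D10B.6 (-1.24 to 0.47), each with an edgeR adjusted p of 1. With the split term, which called 16 genes (0.0962%), the values were -0.29 ± 0.31 for exh-1 (adjusted p 0.868), -0.08 ± 0.30 for C36C5.12 (0.969) and -0.42 ± 0.22 for Y19D10B.6 (0.833). No difference between these strains passed the threshold for any of the 3 genes. The intervals without a covariate leave room for one in either direction. With the split term they were -0.89 to 0.30 for exh-1, -0.66 to 0.50 for C36C5.12 and -0.85 to 0.02, almost all negative, for Y19D10B.6. With the replicate number as a block, edgeR called 0 genes, although the labels do not say that same-numbered libraries are pairs. The values were -0.31 ± 0.32 for exh-1, -0.07 ± 0.37 for C36C5.12 and -0.43 ± 0.24 for Y19D10B.6 (adjusted p 1 each). Without TDP-43 replicate 4 and without the split term, the log2 fold changes were -0.76 for exh-1 and -0.64 for C36C5.12. That fit keeps the low-oocyte library of wild type and none of TDP-43, so the kinds are unbalanced. With high-oocyte libraries alone, the value was -0.70 ± 0.24 for exh-1 (edgeR unadjusted p 0.0147, adjusted p 0.705). It was -0.27 ± 0.30 for C36C5.12 (adjusted p 0.908) and -0.45 ± 0.24 for Y19D10B.6 (adjusted p 0.818). The values of exh-1 and C36C5.12 were thus more negative in both fits than over all libraries without a covariate. These fits do not rank the genes by their dependence on replicate 4. In these high-oocyte libraries the wild type mean was 1.65 times that of TDP-43 for exh-1, 1.23 times for C36C5.12 and 1.39 times for Y19D10B.6.

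TDP-43dNLS against TDP-43 shares the TDP-43dNLS libraries with the selection, so its values are only set beside the others. The log2 fold change was -1.82 ± 0.41 for exh-1, -2.17 ± 0.52 for C36C5.12 and -1.22 ± 0.44 for Y19D10B.6 without a covariate, where edgeR called 0 genes (0%), with 86 lower and 341 higher at an unadjusted p under 0.05. With the split term it was -1.83 ± 0.31, -2.23 ± 0.31 and -1.42 ± 0.23, and 1 gene was called (0.00601%), none of the 3. The Wald test of DESeq2 without a covariate put exh-1 (adjusted p 0.00727) and C36C5.12 (0.0193) past the threshold and not Y19D10B.6 (0.566). Over all 16637 tested genes it called 5 lower and 3 higher. The shared libraries also touch these values. In high-oocyte libraries the TDP-43 mean was 2.38, 3.33 and 2.42 times that of TDP-43dNLS for exh-1, C36C5.12 and Y19D10B.6.

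The genes around the 3 were next read from the same fits, since they were taken by position within 25 kb and not by value. Of 17 annotated genes around exh-1 and C36C5.12, 6 had enough counts to be tested and the other 11 reached at most 0.673 CPM in any library. The untested genes here include srab-6, srab-7, srab-8, srab-10 and srab-11, of a family of chemoreceptor genes. Around Y19D10B.6, 8 of 20 genes were tested and the other 12 reached at most 1.05 CPM. None of these 14 neighbours passed the threshold in any of the 3 comparisons, with or without the split term. Over all 16637 tested genes, at most 1 gene passed without the term (0.00601%) and at most 16 with it (0.0962%). The lack of calls among so few neighbours therefore says little about them.

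On the left side of exh-1, the nearest tested genes gave log2 fold changes of TDP-43dNLS against wild type, with the split term, of 0.97 ± 1.05 for the chemoreceptor gene srab-9, 0.12 ± 1.00 for F02C9.1 and 0.15 ± 0.48 for irld-3. To the right of C36C5.12, both tested genes were negative, C36C5.14 at -1.92 ± 0.66 and C36C5.15 at -3.63 ± 1.01. Their edgeR adjusted p-values were 0.692 and 0.423, so neither passed. The median over the 6 tested neighbours was 0.02, with 3 negative, beside 0.01 and 48.5% negative over all tested genes.

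Around Y19D10B.6, the nearest tested gene was an annotated pseudogene (WBGene00021234) 327 bases beyond its 3′ end, at -1.65 ± 0.91 (adjusted p 0.919) and at most 1.68 CPM. The nuclear hormone receptor genes nhr-226 and nhr-115 stood at 0.49 ± 0.37 and 0.02 ± 0.39. On the other side pud-3 stood at -0.55 ± 0.71, pud-4 at -0.74 ± 1.06 and the pud-2.2 copy WBGene00017490 at -0.18 ± 0.65. The pud genes lie here in several copies, and how reads that map to more than 1 place were counted is not given in the sources used here, so their values are uncertain. The median of the 8 was -0.44, with 6 negative. In TDP-43 against wild type without a covariate, all 6 tested neighbours of exh-1 and C36C5.12 were positive (median 0.44). All 8 of Y19D10B.6 were negative (median -0.33), beside 48.1% negative over all genes. Most of these values were smaller than their SE. With the split term, 1 of the 6 was negative (median 0.72) and all 8 were (median -0.29), beside 48.9% over all genes.

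**Figure D2:**
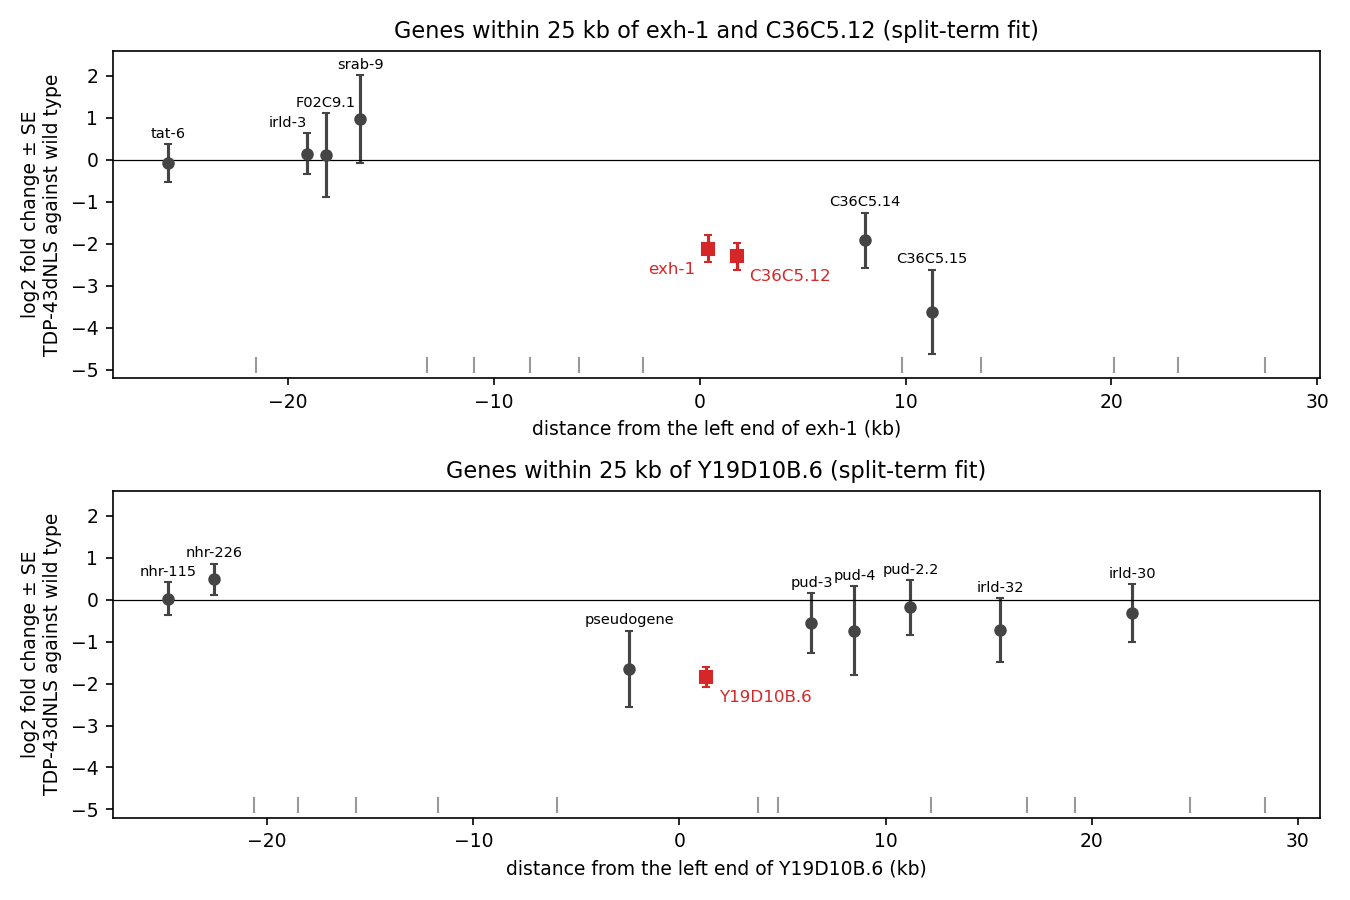
Log2 fold change ± SE of TDP-43dNLS against wild type (split-term fit) for genes within 25 kb of exh-1 and C36C5.12 (upper) and of Y19D10B.6 (lower), by distance of the gene's middle from the left end of exh-1 or Y19D10B.6 in kb; red squares are the 3 selected genes, circles the tested neighbours and grey ticks the genes with too few counts. C36C5.14 (-1.92) and C36C5.15 (-3.63) are negative on the right of C36C5.12, whereas srab-9 (0.97), F02C9.1 and irld-3 on the left are not.

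C36C5.14 and C36C5.15 also share the exon lengths of exh-1 and C36C5.12. Of 3447 coding genes with a transcript of 3 coding exons, 5 (0.145%) had a middle exon of 414 and a last exon of 57 bases, and all 5 lie on chromosome V: exh-1, C36C5.12, C36C5.14, C36C5.15 and exc-13. The first exon had 132 bases in C36C5.14 and 138 in C36C5.15 and exc-13. exc-13 (WBGene00015393, 7365251 to 7366060, plus strand) is a gene of the exc class. These relatives were found by exon length, after the values had been seen, because protein sequences were not used here. Reads that match several of these genes could have been counted for any of them.

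exc-13 stood at 14.1, 8.83, 8.11 and 37.7 CPM in wild type. It stood at 9.25, 5.01, 7.80 and 28.3 CPM in TDP-43 and at 2.98, 4.38, 18.8 and 12.2 CPM in TDP-43dNLS. Low-oocyte libraries were the highest of each group, and the groups overlapped. Among high-oocyte libraries, both TDP-43dNLS values lay below those of the other strains. The share of all genes that do so was not counted, so this carries no weight of its own. The log2 fold change of TDP-43dNLS against wild type was -0.84 ± 0.74 without a covariate (edgeR adjusted p 1) and -1.41 ± 0.28 with the split term (unadjusted p 0.00027, adjusted p 0.15).

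C36C5.14 stood at 1.71, 1.83, 0.994 and 6.97 CPM in wild type. It stood at 3.40, 2.85, 1.06 and 30.2 CPM in TDP-43 and at 0.509, 0.614, 2.48 and 0.284 CPM in TDP-43dNLS. The groups overlapped through TDP-43dNLS replicate 3, and TDP-43 replicate 4 was far above its group. C36C5.15 had 0 counts in TDP-43dNLS replicates 1 and 2, which allows levels up to 0.118 and 0.123 CPM (3 counts, counting error only). It had 0.961 and 0.203 CPM in replicates 3 and 4, 0.314 to 3.41 CPM in wild type and 0.0729 to 16.1 CPM in TDP-43, so these groups overlapped as well. In TDP-43 against wild type, C36C5.14 stood at 1.70 ± 1.06 and C36C5.15 at 1.92 ± 1.49 without a covariate (edgeR adjusted p 1 each), and at 1.16 ± 0.62 and 1.27 ± 0.81 with the split term (0.835 and 0.855).

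All 3 relatives of exh-1 and C36C5.12 were thus negative for TDP-43dNLS against wild type, with a median of -1.56 without a covariate and -1.92 with the split term, and none passed the test. Over all tested genes the medians were -0.01 and 0.01, with 50.8% and 48.5% negative, and 0 and 9 genes passed (0% and 0.0541%). In the exc class as a whole, of 10 exc genes tested, exc-13 included, 4 were negative without a covariate (median 0.11) and 7 with the split term (median -0.30), and none passed. Besides exc-13, exc-6 stood at -0.47 ± 0.33 and exc-4 at 0.13 ± 0.18 with the split term.

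**Figure D3:**
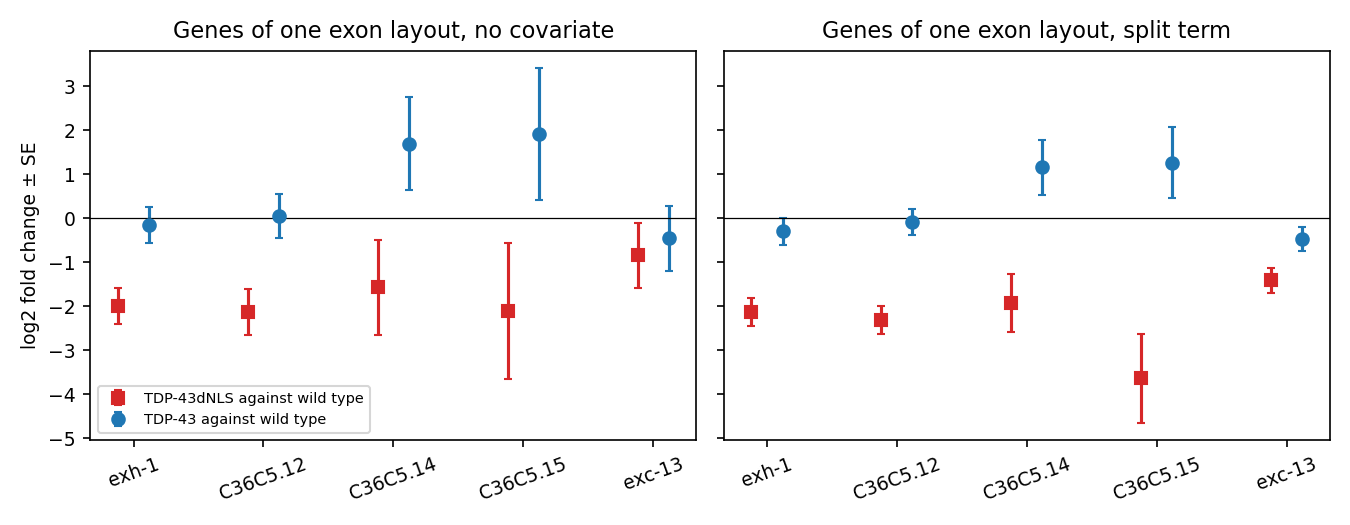
Log2 fold change ± SE of the 5 genes with coding exons of 414 and 57 bases in second and last place, without a covariate (left) and with the split term (right); red squares compare TDP-43dNLS and blue circles TDP-43 with wild type. exh-1 and C36C5.12 were chosen for being lower in TDP-43dNLS. The other 3 are negative there as well, beside 50.8% (left) and 48.5% (right) negative over all tested genes. In TDP-43 without a covariate, C36C5.14 (1.70) and C36C5.15 (1.92) are positive with wide errors, and exh-1 (-0.15) and C36C5.12 (0.05) lie near 0.

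Y19D10B.6 shared a run of at least 3 neighbouring coding exons of equal length with 7 other genes among 19985 coding genes searched. T28A11.17, also on chromosome V, shared 8 of the 9 exon lengths in a row, and F19C6.4 on the X chromosome shared 5. Neither passed the test: with the split term T28A11.17 stood at 0.23 ± 0.56 (edgeR adjusted p 0.953) and F19C6.4 at -0.59 ± 0.27 (0.919). Of the 7 genes, 5 were tested, 4 were negative and none passed, with a median of -0.50. Over all 16637 tested genes 48.5% were negative and 9 passed in this fit. The others tested were F09D12.2 at -0.50 ± 0.71, C17B7.8 at -0.20 ± 0.52 and irld-32, which also lies within 25 kb of Y19D10B.6, at -0.72 ± 0.76; C17B7.10 and T28A11.20 had too few counts.

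The 3 genes followed one another across the 12 libraries. Likeness was measured as Pearson's r of log2 CPM after the mean of the low-oocyte and of the high-oocyte libraries was subtracted, over 14812 genes. The value was 0.935 between exh-1 and C36C5.12, 0.953 between exh-1 and Y19D10B.6 and 0.936 between C36C5.12 and Y19D10B.6. Being lower in TDP-43dNLS, for which the genes were chosen, enters all of these values. Over the 8 wild type and TDP-43 libraries alone, an alternative added after the data were seen, r was 0.97 between the neighbours exh-1 and C36C5.12, each ranking 5 among the genes most like the other. It was 0.663 between exh-1 and Y19D10B.6 and 0.533 between C36C5.12 and Y19D10B.6, with ranks of 1380 and 2014 for Y19D10B.6. These values describe few points, which share libraries and depth.

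The profiles most like those of the 3 genes were listed over all 12 libraries, where the low TDP-43dNLS values that chose the genes enter, and over 8 without them. Over 12 libraries, closest to exh-1 were mlc-3 (r 0.975), a myosin light chain gene, pqn-22 (0.973), mlc-2 (0.964), another myosin light chain gene with a near-identical copy, test-1 (0.963) and T02D1.8 (0.963). Closest to C36C5.12 were the troponin T gene tnt-2 (0.957), the calsequestrin gene csq-1 (0.943), which encodes the calcium-storing protein of muscle, C50F2.4 (0.941), pqn-22 (0.939) and T09B4.8 (0.937). Closest to Y19D10B.6 were T09B4.8 (0.968), exh-1, the gelsolin-like gene gsnl-1 (0.945), C36C5.12 and pqn-22 (0.935). Without the TDP-43dNLS libraries the closest genes were mostly others. For exh-1 they were C02F12.5 (r 0.992), nspb-1 (0.985), nspb-3 (0.985), WBGene00045410 (0.977) and C36C5.12, with mlc-3 at rank 6 and mlc-2 at rank 38. For C36C5.12 they were WBGene00045410 (0.991), ZK909.6 (0.979), ZC239.16 (0.979), F43H9.4 (0.975) and exh-1, with csq-1 at rank 163 and tnt-2 at rank 197. For Y19D10B.6 they were dach-1 (0.985), F38E9.1 (0.981), fipr-5 (0.978), pho-4 (0.977) and frpr-7 (0.977), with T09B4.8 at rank 811 and gsnl-1 at rank 1261.

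The body wall muscle gene tnt-2, nearest to C36C5.12 over 12 libraries, had a level of 1455, 1291, 1217 and 1329 CPM in wild type. It stood at 1140, 1192, 1167 and 2025 CPM in TDP-43 and at 724, 905, 718.5 and 674.5 CPM in TDP-43dNLS. The TDP-43dNLS libraries lay below all others, as in 23 of 16637 tested genes (0.138%). Since tnt-2 was picked for its likeness to C36C5.12, this pattern follows from the choice and carries no weight of its own. TDP-43 replicate 4 was its highest library. The log2 fold change against wild type was -0.84 ± 0.19 with the split term (edgeR adjusted p 0.231).

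Of 10 body wall muscle markers, all tested, 9 were negative for TDP-43dNLS against wild type with the split term (median -0.67) and 8 without it (median -0.52). None passed. Over all 16637 tested genes 48.5% and 50.8% were negative, and 9 and 0 passed. At an unadjusted edgeR p under 0.05 with the split term, 7 markers were lower and 1 higher, beside 654 lower and 211 higher over all tested genes. unc-54, the major myosin heavy chain gene of body wall muscle, was the positive one with the split term, at 0.93 ± 0.18 (adjusted p 0.149), and at 1.18 ± 0.34 without it (adjusted p 1); myo-3, another myosin heavy chain gene, stood at -0.36 ± 0.21 with the term and 0.00 ± 0.45 without it. The mean level of the list ran from 9.93 to 10.78 log2 CPM in wild type, 10.11 to 11.19 in TDP-43 and 9.77 to 10.46 in TDP-43dNLS, ranges that overlap, and TDP-43 replicate 4 had the highest value. In TDP-43 against wild type without a covariate the list median was 0.09, with 3 of 10 negative, beside 48.1% over all tested genes. The body wall muscle list had a median r of 0.82 with exh-1, 0.82 with C36C5.12 and 0.71 with Y19D10B.6 over 12 libraries. No other list exceeded 0.35. The low TDP-43dNLS values that chose the genes enter these medians. Single genes of the list ran widely, from -0.73 to 0.94, -0.81 to 0.96 and -0.79 to 0.87. Over the 8 wild type and TDP-43 libraries these medians were 0.54, 0.53 and 0.29, and the pharynx muscle list, at 0.72, 0.58 and 0.93, was higher for each gene. The pan-neuronal list was also above body wall muscle for exh-1 (0.60) and Y19D10B.6 (0.73) there, and adult cuticle (0.47) and intestine (0.34) for Y19D10B.6. The TDP-43dNLS strain carries its marker under a body wall muscle promoter and the TDP-43 strain under a pharyngeal one. The part of muscle content or of the markers in the levels of the 3 genes was not tested.

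**Figure D4:**
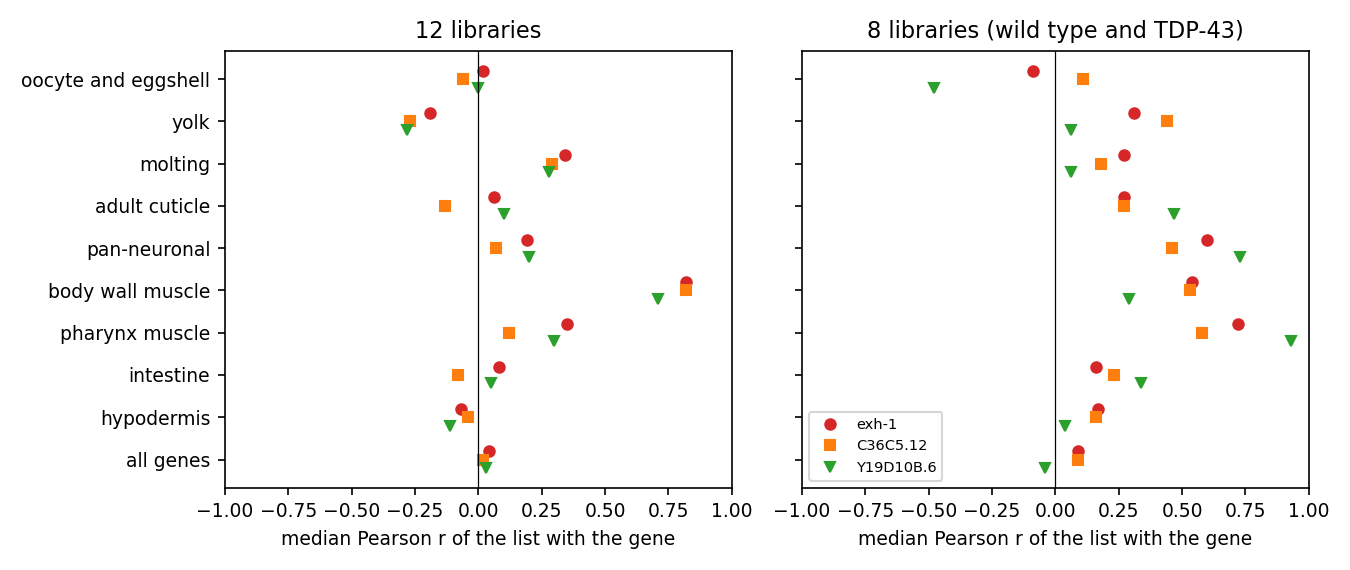
Median Pearson r between each of the 3 genes and the genes of 9 marker lists, and all genes, over 12 libraries (left) and over the 8 wild type and TDP-43 libraries (right), after the low-oocyte and high-oocyte means were subtracted. Over 12 libraries, where the low TDP-43dNLS values that chose the genes enter, body wall muscle stands apart (0.71 to 0.82). Over 8 it lies at 0.29 to 0.54, and pharynx muscle is the highest list (0.58 to 0.93).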

How the data were processed

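Each library has 1 column of raw counts per gene in the table that the authors deposited, matched by name, with 46926 rows. Per the submitters' processing notes, STAR and featureCounts 2.20.0 were used with R 4.4.2 and the build WBcel235. No source used here gives the strand setting or says how reads with several matches were counted. Names, positions and exons came from Ensembl release 115 of that build.

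Counts were analysed in R 4.3.3 with edgeR 4.0.16. Of all rows, 16637 with 99.9% of counts passed filterByExpr (minimum count 10). CPM values use TMM-scaled library sizes. One robust quasi-likelihood fit to all libraries gave the log2 fold changes, with p-values adjusted by Benjamini-Hochberg over all tested genes (threshold 0.05). Standard errors came from the fold change and its F statistic, and 95% intervals from the normal approximation. The split term marks libraries under a mean of 6 log2 CPM in the oocyte list, so it is itself defined from expression. Likeness used a prior count of 2 and genes of at least 1 CPM on average. The fits were tested on simulated data.

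The genes, lists and fits were chosen with earlier results of these data known. Genes named were the 3 selected ones, the 3 nearest tested genes on each side within 25 kb, relatives by exon length (in place of relatives by protein sequence), the 5 most alike, and markers of the libraries. Alternatives used DESeq2 1.42.0, limma 3.58.1, other scalings and filters, the split term, and each library left out. Deviations from the group means correlated at 0.23, 0.51, 0.50 and 0.82 between wild type and TDP-43 libraries of the same number. In both groups replicate 4 was the low-oocyte library, and libraries of different numbers were not compared. These correlations therefore cannot tell pairing from the split, and the labels give no shared batch or day. The block by replicate number is given only as an alternative. For TDP-43dNLS, replicate 3, a low-oocyte library, was negative against both groups (-0.63 and -0.56). The other 6 pairs of TDP-43dNLS libraries were at 0.30 to 0.75.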

Additional observations from a re-analysis of the deposited data

Results flagged for a closer look

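In 60 groups of 4 libraries, the highest or lowest library stood apart in 10 by Dixon's criterion at the 95% level, which sets the gap to the next library against the range of the group, where chance flags about 1 in 20 groups. TDP-43 replicate 4, the only library of its group low in oocyte transcripts, was the high one in 7 of them: exh-1 at 66.0 CPM, C36C5.12 at 28.6, Y19D10B.6 at 32.2, C36C5.14 at 30.2, C36C5.15 at 16.1, pud-3 at 7.36 and pud-4 at 4.63. C36C5.14 was also high in wild type replicate 4, at 6.97 CPM, and in TDP-43dNLS replicate 3, at 2.48 CPM, both low-oocyte libraries. C36C5.12 was low in TDP-43dNLS replicate 1, at 1.53 CPM against 3.33 CPM in the next library.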

How the results depend on the processing

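Over 34 alternatives, the log2 fold change of TDP-43dNLS against wild type stayed negative for all 3 genes. It ran from -2.30 to -1.88 for exh-1, -2.79 to -1.77 for C36C5.12 and -1.97 to -1.28 for Y19D10B.6. The genes were chosen by this difference in these libraries, so this is a description only. For TDP-43 against wild type, C36C5.12 (0.05) turned to -0.13 with limma voom, -0.08 with the split term and -0.27 with the 8 high-oocyte libraries. With single libraries left out, with or without the split term, it ran from -0.64 to 0.39, and exh-1 from -0.76 to 0.02. The exh-1 value for TDP-43dNLS against TDP-43 moved to -1.26 with the 8 libraries and ran from -2.0 to -1.22 with libraries left out. Adjusted p-values of the 3 genes for TDP-43 against wild type stayed between 0.447 and 1.

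Counts of genes past the threshold moved most. TDP-43 against wild type gave 0 with upper-quartile scaling or the stricter filter, 21 with DESeq2, 16 with the split term, 9 with the 8 libraries and 0 to 13 with libraries left out. TDP-43dNLS against TDP-43 gave 8 with DESeq2, 1 with the split term and 0 to 1. TDP-43dNLS against wild type gave 16 with DESeq2, 9 with the split term, 6 with the 8 libraries and 0 to 17. For this last comparison DESeq2 called exh-1 (adjusted p 0.00136) and C36C5.12 (0.0225) but not Y19D10B.6 (0.0856). With the 8 libraries edgeR called none of them (0.0682, 0.241 and 0.152). This comparison chose the genes, so these values are a description and no test. Why the counts and calls differed between settings was not tested. Neighbours and relatives gave 0 calls throughout, where at most 21 of all tested genes were called in any fit.

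With the replicate number as a block, TDP-43 against wild type gave 0 genes and C36C5.12 stood at -0.07. TDP-43dNLS against wild type gave 0 genes and -2.0, -2.05 and -1.62 for exh-1, C36C5.12 and Y19D10B.6. Whether the numbers pair the libraries is not known for either comparison. Without centring, 3, 1 and 2 of the 5 genes most like exh-1, C36C5.12 and Y19D10B.6 were shared with the centred lists.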
